A study of Mus musculus with 12 samples.

Results

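The nuclear genes of oxidative phosphorylation were examined in RNA-seq libraries of mouse liver from 12 female C57BL/6J mice. Members were chosen by symbol, under a rule set with earlier results of these data known. The rule took every gene beginning with Nduf (45 genes, complex I), Sdha to Sdhd (4 genes, complex II) and Uqcr (8 genes, complex III). It also took those beginning with Cox4 to Cox8 (18 genes, complex IV) or Atp5 (17 genes, complex V, the ATP synthase). This gave 92 of the 24062 genes in the count tables, and 85 of them passed the filter of at least 1 CPM, a count scaled to 1000000 counts per library, in at least 2 mice. The prefix also takes in 7 assembly factors of complex I (Ndufaf1 to Ndufaf7) and 2 genes, Atp5s and Atp5sl, that are not counted among the structural subunits. Ndufa4 is grouped here with complex I by its name, although its protein was later placed in complex IV.

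Of the 12 mice, 6 ate a control diet (replicates 1 to 6) and 6 a matched diet with BIBB-515 at 55 mg/kg body weight (replicates 6 to 11), for 10 days. BIBB-515 inhibits lanosterol synthase (Lss), the enzyme that closes the sterol ring in cholesterol synthesis, and the mice tested what that inhibition does to the liver. The labels name no engineered allele in either group. All mice were bought at 6 weeks of age, acclimated for 2 weeks and moved from chow to the control diet 3 days before the start. The study randomized 11 mice to each diet, so the sequenced livers are a subset. The tissue was flash-frozen liver, in which fewer cells of a type and less RNA per cell cannot be told apart.

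Oxidative phosphorylation makes most of a liver cell's ATP. Complexes I and II pass electrons from NADH and succinate to ubiquinone, complex III passes them to cytochrome c, and complex IV to oxygen, while complexes I, III and IV move protons across the inner mitochondrial membrane. The ATP synthase lets the protons flow back through a ring of c subunits and uses the rotation to make ATP. Most subunits are encoded in the nucleus, a few in mitochondrial DNA, and fasting liver relies on this machinery to power gluconeogenesis.

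Total counts per library ran from 22764819 to 31058370. Of 6 hepatocyte markers 5 were high, with Alb, the gene of serum albumin, at 81730 to 127370 CPM, and 3 passed the test as lower with BIBB-515. The sixth, Ass1, an enzyme of the urea cycle, had 273 counts in all libraries together here and 622163 in the tables that count a read for each overlapping gene. The share of all counts that fell on Alb was 11.8% ± 0.483 (SD, n = 6) in controls and 9.26% ± 0.530 (SD, n = 6) with BIBB-515. Over all genes, 1705 of 12481 tested (13.7%) had an FDR under 0.05 in edgeR's quasi-likelihood test, 896 of them higher (7.18%) and 809 lower (6.48%). Scaling by library size alone, without the trimmed-mean (TMM) factors used here, gave 1496 higher and 490 lower genes.

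Expression of the oxidative phosphorylation genes moved little with BIBB-515. Of 85 members 1 passed the test, Atp5g2, which was higher, and 0 passed as lower. The background was 7.18% of all tested genes higher and 6.48% lower, and the called member is 1.18% of the tested members. The median log2 fold change of the 85 members was 0.08, against -0.01 for all tested genes, and 80.0% of members (68 of 85) lay above 0 against 47.1% of all. At an unadjusted p under 0.05, 16 members were on the higher side (18.8%, against 14.3% of all genes) and 2 on the lower side (2.35%, against 15.5%). The 95% confidence interval of the fold change stayed within a change of 1.5-fold either way for 84 of 85 members (98.8%), against 78.3% of all tested genes. The standard errors of the members were also smaller, with a median of 0.07 against 0.10 for all genes on the log2 scale. The member whose interval reached beyond 1.5-fold was Cox7a1.

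**Figure D1:**
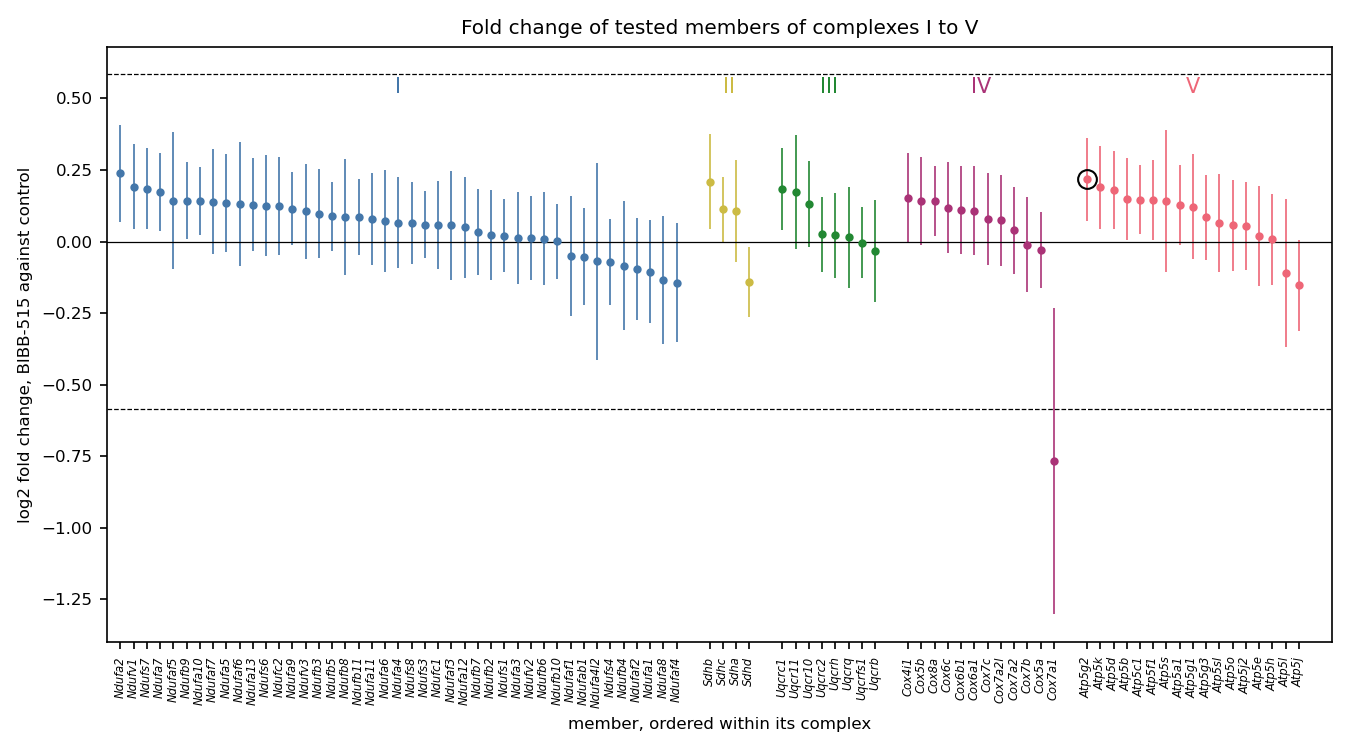
Log2 fold change of BIBB-515 against control with its 95% confidence interval for the tested members, 1 of the 85 not drawn, ordered within complexes I to V; dashed lines mark a change of 1.5-fold and the ring marks the member past an FDR of 0.05. The points lie between -0.77 (Cox7a1) and 0.24 (Ndufa2), 68 of the 85 members are above 0, and only the interval of Cox7a1 crosses a dashed line.

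With DESeq2, 14 of the 85 members were called higher, a larger share than the 9.32% of all genes. There 2 were called lower, against 8.66% of all genes. With library size alone 16 of the 85 were called higher, a larger share than the 12.0% of all genes, and 0 lower (3.93%). When each library's trend of CPM on gene length was removed, 0 members were called higher (7.44% of all genes) and 4 lower (6.34%), and the median fell to 0.01.

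The members are abundant liver messages. In controls the median level per kilobase of exon was 104 CPM for complex I, 180 for complex II and 268 for complex III. It was 245 for complex IV and 227 for complex V, against 5.53 for all tested genes. From the medians of the complexes, the Ndufaf assembly factors and isoforms of other tissues were left out, while Atp5s and Atp5sl were kept. The highest member of each complex was Ndufa4 at 578 CPM per kilobase, Sdhd at 198, Uqcrq at 587, Cox4i1 at 538 and Atp5b at 673. Within complex II the 4 subunits spanned only 1.44-fold, while within complex I the range was 35.4-fold, from Ndufb4 at 16.3 to Ndufa4. Control ranges of neighbours in the order of levels overlapped in 37 of 43 pairs of complex I and 2 of 3 of complex II. They overlapped in 7 of 11 pairs of complex IV and 10 of 16 of complex V. In complex III they overlapped in only 3 of 7 pairs. Ndufa4, Uqcrq and Cox4i1 stood clear of the next member of their complex in the control mice.

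**Figure D2:**
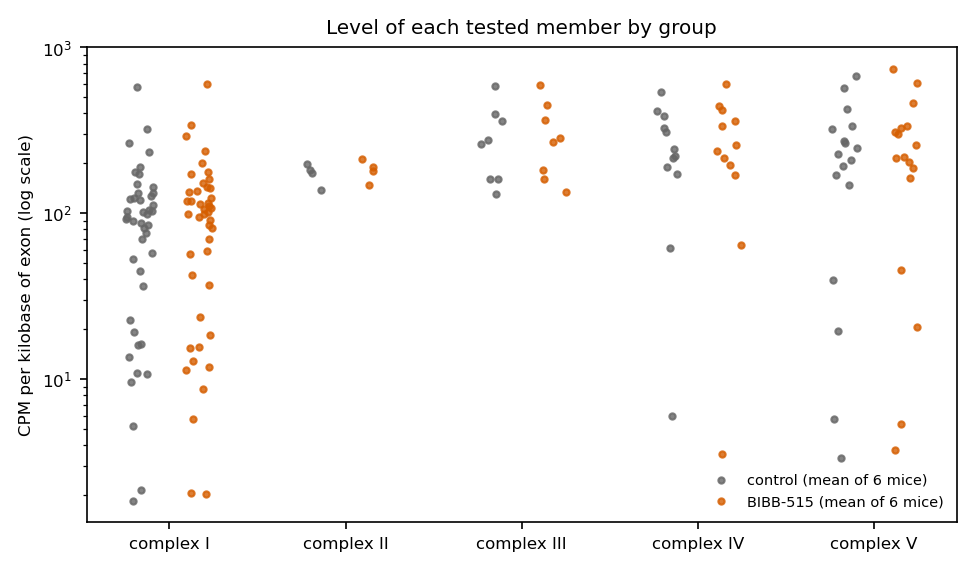
Level of each tested member in CPM per kilobase of exon (log scale) by complex, each point the mean of the 6 control mice (grey) or the 6 BIBB-515 mice (orange). Complex II spans 138 to 198 in controls, and the lowest points of the other complexes include isoforms of other tissues, assembly factors, Atp5l and Atp5s.

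Some members share sequence or exons with other genes, and the counts leave out reads that map to several places or to overlapping genes. Atp5l, which encodes subunit g of the ATP synthase, had only 5.76 CPM per kilobase in controls, and 84.8% of the 50-base words of its transcripts also occur in transcripts of 14 other genes. Ndufb4, an accessory subunit of complex I, shared 37.0% of its words. In all, 13 of the 92 members shared over 30% of their words. In the tables made from primary alignments the summed counts of Atp5l were 901 in place of 893 and those of Ndufb4 stayed at 2266, and the part of shared sequence in these levels was not tested. Ndufs5, an accessory subunit of complex I, had 0 counts in every library, and the gene model BC002163 overlaps 95.1% of its exon bases. In the tables that count a read for each overlapping gene, Ndufs5 had 210 to 456 counts per library. There it was at 11.8 ± 1.89 CPM (SD, n = 6) in controls and 13.9 ± 1.6 CPM (SD, n = 6) with BIBB-515, a log2 fold change of 0.23 (SE 0.11, FDR 0.166 in edgeR's quasi-likelihood test). Those reads cannot be told apart from reads of BC002163.

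Complex I, which oxidizes NADH, had 44 tested members and none past the threshold. Their median log2 fold change was 0.07, with 35 above 0 and 9 below, and 7 had an unadjusted p under 0.05, each on the higher side (15.9%, near the 14.3% of all tested genes). All 7 core subunits, which carry the flavin, the iron-sulfur clusters and the ubiquinone site, lay above 0, between 0.01 and 0.19. Groups without overlap on the higher side were found for 4 members in all (4.71%), among them Atp5g2, Cox8a and Atp5c1, against 4.35% of all tested genes, and on the lower side for 0 members against 2.72%.

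Ndufv1 binds the flavin where NADH is oxidized. It had 147.1, 168.5 and 186.1 CPM as lowest, median and highest control value and 178.5, 189.4 and 211.8 CPM with BIBB-515. The groups overlapped, with 3 BIBB-515 mice above all controls, and the log2 fold change was 0.19 (SE 0.07, FDR 0.0814). Ndufs7, which holds the last iron-sulfur cluster before ubiquinone, had a log2 fold change of 0.18 (SE 0.07, FDR 0.0763), with 73.8 to 86.7 CPM in controls and 79.8 to 98.5 with BIBB-515. Other core subunits were closer to 0, with Ndufs1 at 0.02 (SE 0.06), Ndufv2 at 0.01 (SE 0.07), Ndufs3 at 0.06 (SE 0.06) and Ndufs8 at 0.06 (SE 0.07). Reads of Ndufs1 are in part lost to the overlapping gene Ino80dos, which covers 8.47% of its exon bases.

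Ndufa2, an accessory subunit, had the highest fold change of complex I. Controls ran from 81.5 through 89.7 to 100.8 CPM and BIBB-515 mice from 91.5 through 104.9 to 123.3 CPM. The groups overlapped, with 4 BIBB-515 mice above all controls, and the log2 fold change of 0.24 (SE 0.08) had an FDR of 0.0587. At the other end, the assembly factor Ndufaf4 was at 35.1 ± 4.98 CPM (SD, n = 6) in controls and 31.8 ± 3.51 (SD, n = 6) with BIBB-515, a log2 fold change of -0.14 (SE 0.10, FDR 0.353). Of the 7 assembly factors, 4 lay above 0 and 3 below, with a median of 0.06, and none passed the test. Ndufa4, the highest member per kilobase, went from 284 ± 19.3 to 298 ± 28.5 CPM (SD, n = 6 each), a log2 fold change of 0.07 (SE 0.07).

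Complex II, which is also succinate dehydrogenase of the TCA cycle, has 4 subunits, all encoded in the nucleus, and they did not share a direction. Sdhb, the iron-sulfur subunit, had 169.5, 197.3 and 219.8 CPM as lowest, median and highest control value and 204.4, 225.0 and 257.6 CPM with BIBB-515. Sdhd, one of the membrane anchors, had 241.0, 252.7 and 266.8 CPM in controls and 217.8, 226.5 and 248.1 CPM with BIBB-515. In Sdhb 3 BIBB-515 mice were above all controls, and in Sdhd 5 of 6 were below all controls. Neither passed the threshold, with a log2 fold change of 0.21 (SE 0.08, FDR 0.0838) for Sdhb and -0.14 (SE 0.06, FDR 0.110) for Sdhd. Sdhc, the other anchor, had a log2 fold change of 0.11 (SE 0.05, FDR 0.175).

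Sdha, the flavoprotein that oxidizes succinate, did not pass the threshold and varied less among the BIBB-515 mice. Controls ran from 430.2 through 481.4 to 623.3 CPM, and BIBB-515 mice from 532.3 through 542.4 to 549.2 CPM. The log2 fold change was 0.11 (SE 0.08, FDR 0.432), and all 6 BIBB-515 values lay above the control mean of 503.5 CPM and within the range of the controls. The SD was 69.7 CPM in controls and 6.52 CPM with BIBB-515, a difference in spread that was not tested.

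Complex III had 8 tested members and none past the threshold, with a median log2 fold change of 0.02. Uqcrc1, a core protein, had the highest value, with 240.0 to 293.5 CPM in controls and 285.7 to 323.9 CPM with BIBB-515. In 4 BIBB-515 mice it was above all controls, and the log2 fold change was 0.18 (SE 0.07, FDR 0.0798). Its partner Uqcrc2 was at 0.02 (SE 0.06). Uqcrfs1, the Rieske iron-sulfur protein that passes electrons toward cytochrome c, was at 213 ± 6.88 CPM in controls and 212 ± 13.3 CPM with BIBB-515 (SD, n = 6 each), with a 95% interval of the log2 fold change from -0.13 to 0.12. Uqcrb, the lowest by fold change at -0.03 (SE 0.08), shares 43.4% of its words with 5 other genes.

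Complex IV, cytochrome c oxidase, had 12 tested members of 18, none past the threshold, with a median log2 fold change of 0.09. Cox4i1, the regulatory subunit that binds ATP, had 333.1, 362.2 and 412.3 CPM as lowest, median and highest control value and 352.0, 408.0 and 450.9 CPM with BIBB-515. Its log2 fold change was 0.15 (SE 0.07, FDR 0.180). Cox8a, a small membrane subunit, was at 165.7 to 183.2 CPM in controls and 184.3 to 217.3 CPM with BIBB-515, without overlap, at a log2 fold change of 0.14 (SE 0.06, FDR 0.117). Cox5b was at 0.14 (SE 0.07) and Cox5a at -0.03 (SE 0.06).

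Several subunits of complex IV come as a form used by most tissues and a form of muscle, lung or testis. In liver the common form carried nearly all of the message. Cox4i1 made up 99.96% of the Cox4 level per kilobase in controls, and Cox4i2, the form of lung and low oxygen, had at most 9 counts in any library. Cox6a1 made up 99.96% against Cox6a2 of muscle, which had 1 to 4 counts, and Cox6b1 99.7% against Cox6b2 of testis, which had 2 to 26 counts. Cox8b of muscle had 0 to 2 counts, while Cox7b2 and Cox8c had 0 counts in every library, which allows up to 3 counts each, or 0.132 CPM in the smallest library. These 6 isoforms are the members of complex IV that were not tested.

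Cox7a1, the heart and skeletal muscle form of subunit 7a, was the only isoform of this kind in complex IV above the filter. It had 1.40, 2.24 and 3.13 CPM as lowest, median and highest control value and 0.713, 1.39 and 1.88 CPM with BIBB-515, from 20 to 78 counts per library. The groups overlapped, with 3 BIBB-515 mice below all controls. The log2 fold change was -0.77 (SE 0.25), with an FDR of 0.0556 in edgeR's quasi-likelihood test and p = 0.026 in a two-sided exact permutation test. It was the only member below an FDR of 0.1 on the lower side, and DESeq2 and the likelihood ratio test called it at FDRs of 0.0235 and 0.0237. None of 5 striated muscle markers passed the filter, and their summed level was 0 to 0.646 CPM in controls and 0.204 to 0.570 CPM with BIBB-515. The 5 fat markers summed to at most 0.258 CPM. The level per kilobase was also summed over Cox7a1, Cox7a2 and Cox7a2l. Of this sum, Cox7a1 made up 2.30% ± 0.633 in controls and 1.33% ± 0.370 with BIBB-515 (SD, n = 6 each). The log2 fold change was 0.04 (SE 0.07) for Cox7a2, the form of liver, and 0.07 (SE 0.07) for Cox7a2l. Ndufa4l2, the isoform of Ndufa4 induced by low oxygen, had 1.55 to 2.41 CPM over all mice and a log2 fold change of -0.07 (SE 0.16).

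**Figure D3:**
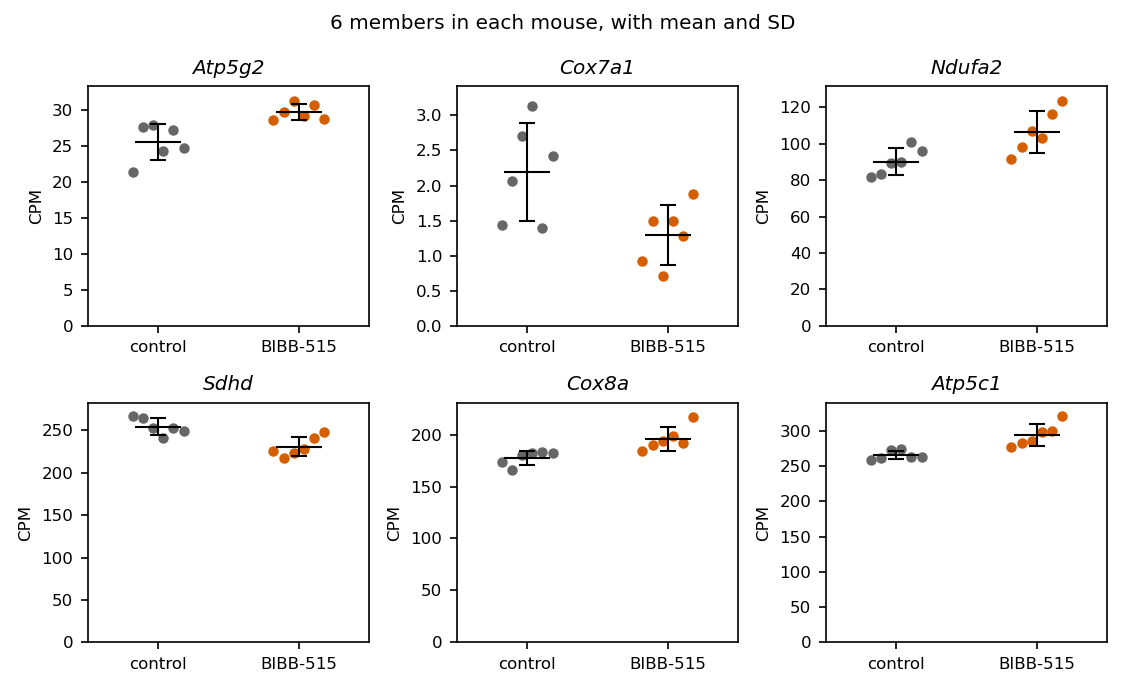
CPM in each of the 6 control (grey) and 6 BIBB-515 (orange) mice for Atp5g2, Cox7a1, Ndufa2, Sdhd, Cox8a and Atp5c1, with mean and SD. The groups do not overlap for Atp5g2, Cox8a and Atp5c1, and they overlap for Cox7a1, Ndufa2 and Sdhd.

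Complex V had 17 tested members, a median log2 fold change of 0.12 and 15 members above 0. Its 5 genes of the catalytic F1 head and central shaft lay between 0.02 and 0.18. Atp5b, the catalytic beta subunit, was the highest member of all, with 1166, 1251 and 1399 CPM as lowest, median and highest control value and 1361, 1392 and 1454 CPM with BIBB-515. The groups overlapped and the log2 fold change was 0.15 (SE 0.07, FDR 0.154). Atp5a1, the alpha subunit, had a log2 fold change of 0.13 (SE 0.07, FDR 0.209). Atp5c1, the gamma subunit of the rotating shaft, ran from 258.6 to 274.5 CPM in controls and from 276.3 to 320.6 CPM with BIBB-515, without overlap, at a log2 fold change of 0.15 (SE 0.06, FDR 0.0980). Atp5j, the coupling factor F6 of the stalk, had the lowest value of complex V at -0.15 (SE 0.07, FDR 0.183), and exons of Gabpa overlap 16.2% of its exon bases.

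The c ring is encoded by 3 genes that are made with different import sequences and give the same ring protein. The last 78 residues translated from Atp5g1, Atp5g2 and Atp5g3 in GENCODE M21 (build GRCm38) were identical, while 50 of the 234 coding bases differed between Atp5g1 and Atp5g3, 53 between Atp5g2 and Atp5g3 and 36 between Atp5g1 and Atp5g2. The first 90 of these coding bases are shown as an example of where the 3 genes differ, with bases that differ from Atp5g3 in capitals.
Atp5g1: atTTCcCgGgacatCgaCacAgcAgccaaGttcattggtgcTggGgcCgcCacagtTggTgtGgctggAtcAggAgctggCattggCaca
Atp5g2: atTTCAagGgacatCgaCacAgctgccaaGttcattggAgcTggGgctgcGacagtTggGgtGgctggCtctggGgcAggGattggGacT
Atp5g3: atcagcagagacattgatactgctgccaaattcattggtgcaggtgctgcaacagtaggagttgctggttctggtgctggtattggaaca
Over all 234 bases, however, Atp5g2 was identical to the annotated pseudogenes Gm10175 and Gm10231, with 0 bases differing. Of the 50-base words of its transcripts, 87.4% also occur in these 2 genes, which are not listed in the count tables. The sequence of a read inside those words does not tell Atp5g2 from these pseudogenes.

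The counted levels of the 3 genes were unequal, in an order whose ranges did not overlap in the control mice. Reads that map to several places were left out of these counts. Of the words, 87.4% were shared for Atp5g2, 11.5% for Atp5g1 and 0% for Atp5g3, and the part of this in the shares was not tested. Atp5g3 (chromosome 2, positions 73908450 to 73911294, minus strand, mm10) made up 73.1% ± 1.88 of the c subunit level per kilobase in controls. Atp5g1 (chromosome 11, positions 96072793 to 96075694, minus strand) made up 21.8% ± 1.67 and Atp5g2 (chromosome 15, positions 102662868 to 102671047, minus strand) 5.04% ± 0.484 (SD, n = 6 each). With BIBB-515 the shares were 72.3% ± 0.722, 22.2% ± 0.718 and 5.48% ± 0.438. The ranges of each share overlapped between the groups.

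Atp5g2 had 21.4, 25.9 and 27.9 CPM as lowest, median and highest control value and 28.5, 29.4 and 31.2 CPM with BIBB-515. All 6 BIBB-515 mice were above all 6 controls. The log2 fold change was 0.22 (SE 0.07), a rise of small size, with an FDR of 0.0456 in edgeR's quasi-likelihood test. In a two-sided exact permutation test p was 0.00216, the smallest that 924 labelings can give. Groups without overlap always give this p, so it adds nothing to the lack of overlap. On the higher side 4.35% of all tested genes had no overlap, against 4.71% of tested members. The FDR ranged from 0.0159 to 0.303 over the 10 other settings with all mice, of which 8 called the gene. The fit without the filter on low counts did not (FDR 0.0586), nor did that with the length trend removed, where the log2 fold change fell to 0.13. Of the 12 fits that leave out 1 mouse only those without control mouse 2, 3 or 5 kept the call. Atp5g1 had 125.8 to 176.5 CPM in controls and 144.6 to 185.2 CPM with BIBB-515, at 0.12 (SE 0.09, FDR 0.370). Atp5g3 had 359.7 to 441.3 CPM in controls and 384.9 to 461.5 CPM with BIBB-515, at 0.08 (SE 0.07, FDR 0.451). Whether the fold change of Atp5g2 differs from those of its paralogs was not tested.

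The promoters of the 3 genes are shown as the 120 bases before the RefSeq start (GRCm38.p6), because nuclear respiratory factor 1 (NRF1), GABP and YY1 are known regulators of this gene class. Capitals mark a match to 1 of 3 motifs searched on both strands: TGCGCA for NRF1, CCGGAAG for GABP and ATGGCGG for YY1.
Atp5g1, chr11:96075632-96075751, minus strand: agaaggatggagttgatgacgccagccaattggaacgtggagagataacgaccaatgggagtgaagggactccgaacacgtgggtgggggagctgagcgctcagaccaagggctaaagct
Atp5g2, chr15:102671048-102671167, minus strand: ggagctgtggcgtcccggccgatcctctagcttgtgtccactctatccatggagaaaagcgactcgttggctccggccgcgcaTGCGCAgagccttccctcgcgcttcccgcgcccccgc
Atp5g3, chr2:73911327-73911446, minus strand: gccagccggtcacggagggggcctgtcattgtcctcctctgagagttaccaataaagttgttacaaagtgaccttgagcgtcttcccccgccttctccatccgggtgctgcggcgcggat
Of these 3 stretches only that of Atp5g2 holds any of the strings, the NRF1 letters. In windows from 250 bases before to 50 after the start, found for 76 members, 19 members (25%) held the NRF1 string, 17 (22.4%) the GABP string and 12 (15.8%) the YY1 string. Among 9474 tested genes with a window the shares were 15.7%, 19.5% and 9.31%, and among 27025 genes of any kind 8.79%, 9.93% and 4.69%. These are matches of letters, not measured binding sites.

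Summed over its members, each complex had a slightly higher mean with BIBB-515. Complex I summed to 3625 ± 178 CPM in controls and 3836 ± 277 CPM with BIBB-515, complex II to 1116 ± 91.2 and 1175 ± 34.5, complex III to 1642 ± 85 and 1718 ± 127, complex IV to 1889 ± 115 and 2014 ± 150, and complex V to 4580 ± 177 and 4955 ± 240 (SD, n = 6 each). The ranges of the groups overlapped in every complex. The difference of the means was larger than both SDs only in complex V. Without TMM scaling, all members together took 1.26% ± 0.0686 of the counts in controls and 1.40% ± 0.0682 with BIBB-515. The ratio of the BIBB-515 mean to the control mean was 1.105 for this share. It was 1.066 for the TMM-scaled sum of all members.

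**Figure D4:**
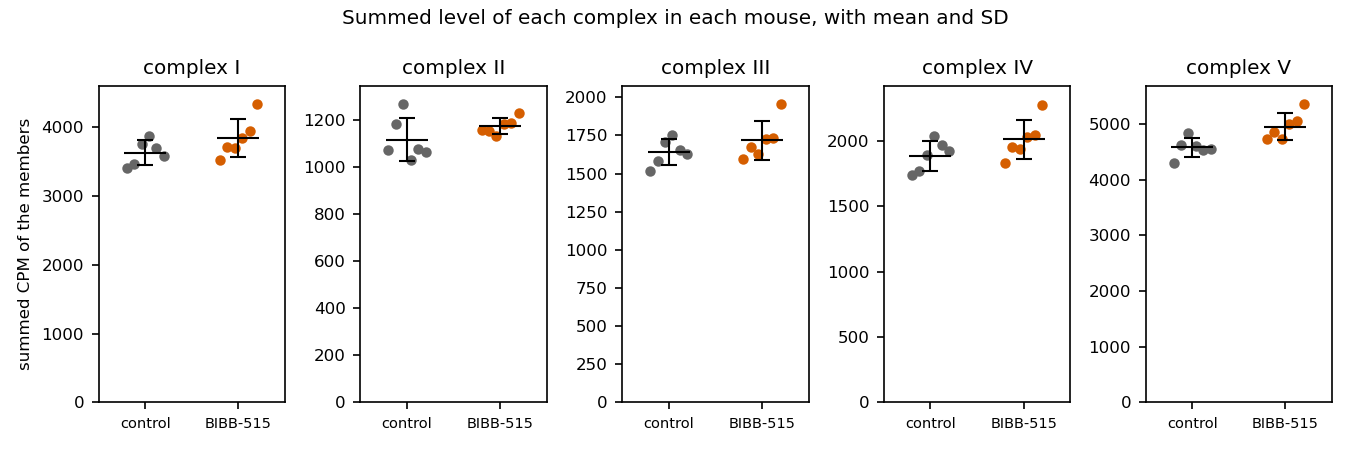
Summed CPM of the members of each complex in each control (grey) and BIBB-515 (orange) mouse, with mean and SD. The highest point of complexes I, III, IV and V is BIBB-515 mouse 11, and complex V shows the widest gap between means, 4580 and 4955 CPM.

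Within a group, the members tended to be high or low in the same mice. BIBB-515 mouse 11 had the highest value of its group in 80 of the 85 tested members (94.1%), against 21.3% of all tested genes. BIBB-515 mouse 6 had the lowest in 56 members (65.9%, against 17.8%). Among controls, mouse 4 was highest in 40 members (47.1%, against 19.7%) and mouse 1 lowest in 34 (40.0%, against 14.7%). The median difference of the members from their group mean was 0.19 on the log2 scale in BIBB-515 mouse 11, -0.13 in BIBB-515 mouse 6, 0.11 in control mouse 4 and -0.09 in control mouse 1. Without BIBB-515 mouse 11 the median log2 fold change of the members was 0.05, and without control mouse 4 it was 0.12.

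Short genes that are not members were also high or low in several of these mice. The median exon length was 709.5 bases for the 92 members, and 40 of the 85 tested members were under 700 bases. Tested genes under 700 bases that are not members had a median difference from their group mean of 0.15 in control mouse 4, 0.13 in BIBB-515 mouse 11, -0.11 in BIBB-515 mouse 6 and -0.06 in control mouse 1. Their lowest value, -0.145, was in control mouse 2, where the members were at -0.05. For genes of 1400 bases or more that are not members the median stayed between -0.02 and 0.02 in every mouse. The 20 members of that length did move, at 0.13 in BIBB-515 mouse 11, 0.065 in control mouse 4, -0.08 in BIBB-515 mouse 6 and -0.07 in control mouse 1. Between the groups, the median log2 fold change was 0.07 for the 321 tested genes under 700 bases, 0.06 for the 1503 of 700 to under 1400 bases and -0.03 for the 10657 longer genes. The members of those classes had medians of 0.07 (40 genes), 0.07 (25 genes) and 0.12 (20 genes). The 20 longest members include Atp5a1, Atp5b, Ndufv1 and Uqcrc1. What sets the length trend was not tested.

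**Figure D5:**
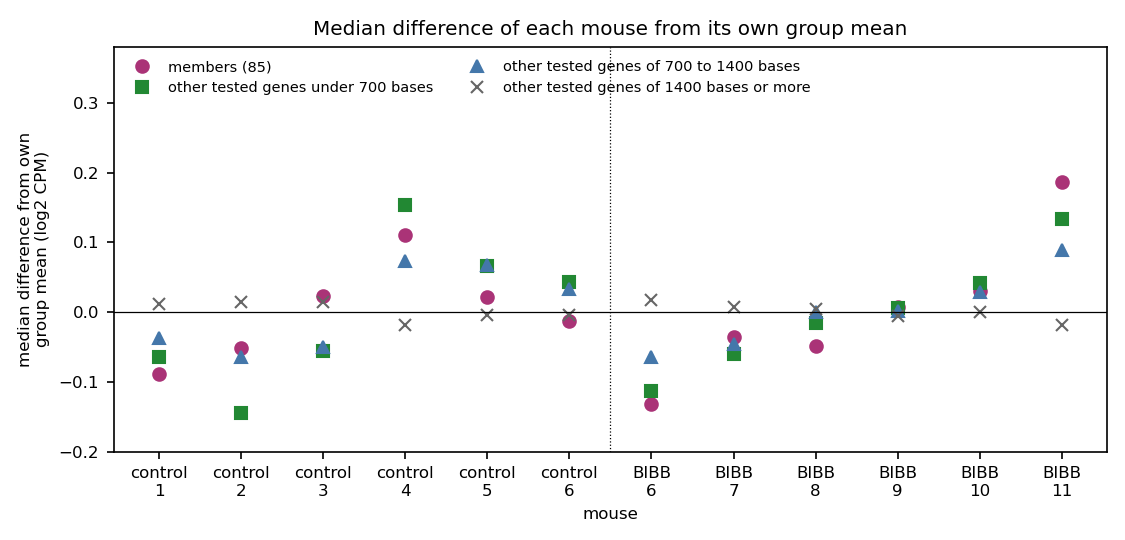
Median difference of each mouse from its own group mean on the log2 CPM scale, for the 85 tested members and for tested genes that are not members in 3 classes of exon length. The members and the genes under 700 bases reach their highest points in control mouse 4 and BIBB-515 mouse 11, while the genes of 1400 bases or more stay near 0.

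Other genes of the same machinery were taken from lists of carriers, assembly factors, TCA cycle enzymes and regulators. Of 71 tested genes on these lists, 5 were higher (7.04%, against 7.18% of all tested genes) and 2 lower (against 6.48%) with BIBB-515 by edgeR's quasi-likelihood test, with a median log2 fold change of 0.06 and 42 of 71 above 0. Atpif1, the inhibitor that binds the ATP synthase and stops it from hydrolysing ATP, had 18.2, 20.9 and 26.9 CPM as lowest, median and highest control value and 28.5, 32.1 and 36.1 CPM with BIBB-515. The groups did not overlap, and the log2 fold change was 0.60 (SE 0.09, FDR 0.000728). Of the other carriers, cytochrome c itself (Cycs) was at -0.19 (SE 0.11, FDR 0.268) and 28.5% of its words occur in other genes.

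Of 36 tested assembly factors (median 0.08), 1 passed, Coa6, which helps deliver copper to complex IV. It went from 18.1 ± 3.04 to 25.3 ± 3.34 CPM (SD, n = 6 each), a log2 fold change of 0.48 (SE 0.11, FDR 0.00967). Of the 14 TCA cycle genes (median 0.10) 2 were higher and 1 lower. Idh2, the NADP-dependent isocitrate dehydrogenase, rose from 94.7 to 144.1 CPM in controls to 148.7 to 167.9 CPM, without overlap, at 0.48 (SE 0.09, FDR 0.00294), and Suclg2 of succinyl-CoA ligase rose at 0.24 (SE 0.07, FDR 0.0409), a call that among the fits leaving out 1 mouse was kept only without control mouse 2 or 3. Idh3a, a subunit of the NAD-dependent isocitrate dehydrogenase that feeds NADH to complex I, fell from 44.9 to 54.9 CPM in controls to 36.2 to 46.2 CPM, at -0.30 (SE 0.07, FDR 0.0106).

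Of 17 tested regulators (median -0.04), 1 was higher and 1 lower. Ppargc1a, the coactivator of mitochondrial genes and of fasting gluconeogenesis, had 17.5, 22.2 and 42.7 CPM as lowest, median and highest control value and 11.4, 14.1 and 18 CPM with BIBB-515, at -0.79 (SE 0.19, FDR 0.0139). Esrra, a nuclear receptor that binds promoters of this gene class with that coactivator, had 34.3, 36.8 and 46.0 CPM in controls and 40.9, 52.3 and 54.9 CPM with BIBB-515, at 0.39 (SE 0.09, FDR 0.0110). In each of these 2 genes 5 of 6 BIBB-515 mice lay outside the range of the controls. Nrf1 (-0.02, SE 0.07), Gabpa (-0.07, SE 0.06) and Tfam (-0.09, SE 0.09), which acts on mitochondrial DNA, did not pass. The 13 subunits encoded in mitochondrial DNA have no row in these tables and were not analysed here.

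Markers of other liver cells gave these values. None of 5 tested leukocyte and Kupffer cell markers, 5 bile duct markers or 4 endothelial markers passed, and 2 of 6 stellate cell markers, Lrat and Dcn, were lower at -0.81 (SE 0.21, FDR 0.0203) and -0.27 (SE 0.08, FDR 0.0398). The stellate list summed to 291 to 393 CPM in controls and 280 to 351 CPM with BIBB-515. The hepatocyte list summed to 138300 to 155100 CPM in controls and 103200 to 118200 CPM with BIBB-515. Most of this sum was Alb, at 114300 to 127400 CPM in controls and 81730 to 95920 CPM with BIBB-515. Alb, Ttr and Serpina1c passed as lower, while Apoa1 (-0.27, FDR 0.128), Cps1 (-0.09, FDR 0.769) and Ass1 (-0.47, FDR 0.326) did not pass. The part of these shifts in the values above was not tested.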

How the data were processed

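Liver RNA-seq of 12 mice, 6 per diet, was analysed from the deposited counts per gene, which the authors made with featureCounts (Subread 1.6.3) on STAR 2.5.3a alignments to mm10, per the file headers and the submitters' processing notes. Multimapping reads and reads on overlapping genes were left out, and no strand option was set. Tables made with primary alignments and each overlapping gene counted were an alternative, and transcript and exon tables were not used. The 12481 genes that reached 1 CPM in 2 or more libraries entered the fit. TMM factors scaled the libraries, and diet was the sole term of a quasi-likelihood fit in edgeR 4.0.16 (R 4.3.3), with Benjamini-Hochberg adjustment across the whole table. CPM are TMM-scaled, and for single genes log2(CPM + 0.1) was also compared over every relabeling of the 12 mice (exact permutation, two-sided). Shared words are 50-base stretches of RefSeq-linked GENCODE M21 transcripts found on either strand of transcripts of other genes. The scripts were tested on simulated data.

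DESeq2 1.42.0, limma 3.58.1 (voom), sva 3.50.0 and other scalings and filters were alternatives. The members and lists were chosen with earlier results of these data known. Named were members past the threshold, the highest and lowest fold change and highest level of each complex, core subunits, isoform pairs, members without counts, and up to 4 called genes of each other list; others named in the text were chosen after their values were seen. Of the named members, 1 is not reported here. The paper housed several mice per cage, and which of the sequenced mice shared a cage or litter is not given. The p-values therefore measure the spread between these mice, not between cages. An effect of cage cannot be told apart from that of diet. No 2 libraries of the same group agreed within counting noise (chi-square per gene of at least 13.4 in 30 pairs). Bounds from a count of 0 cover counting error only.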

Additional observations from a re-analysis of the deposited data

Results flagged for a closer look

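Within a group of 6, a mouse far from the other 5 was looked for in 80 sets of values. The sets were the tested members named by the rule above and the summed complexes, in each group. Members named only after their values were seen were not among them. Dixon's test at the critical value of 0.625 found 5. Chance flags about 1 in 20 such sets, and the sets are not independent. In 4 of the 5 the distant value was the highest one of BIBB-515 mouse 11. Ndufa4 was at 352.5 CPM there against 273.9 to 300.4 in the other 5 mice, with a gap of 0.662 of the range. Uqcrb was at 161.8 against 122.7 to 135.8 CPM, with a gap of 0.666. Cox6b1 was at 245.7 against 194.2 to 211.9 CPM, with a gap of 0.656. Cox7b was at 198.2 against 159.3 to 172.1 CPM, with a gap of 0.673. In the fifth, Atp5j in control mouse 4 was at 205.8 against 157.8 to 170.8 CPM, with a gap of 0.729. Both mice are those in which tested genes under 700 bases that are not members also had their highest median difference from the group mean. The part of gene length in these values was not tested.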

How the results depend on the processing

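No paired analysis was possible because the groups share fewer than 2 replicate numbers. The count of members higher with BIBB-515 was 1 as reported. It was 14 with DESeq2 (against 9.32% of all tested genes), 16 with library size alone (12.0%) and 7 with 1 surrogate variable (10.1%). Without the filter on low counts it was 0 (4.63%). With the length trend removed, an alternative added after the data were seen, it was also 0 (7.44%). The count of members lower was 0 as reported. It was 2 with DESeq2 (against 8.66% of all tested genes), 1 with the likelihood ratio test (Cox7a1, against 7.77%) and 1 with 1 surrogate variable (9.45%). With the length trend removed it was 4 (Atp5j, Cox7a1, Ndufa1 and Sdhd, against 6.34%). Leaving out 1 mouse gave 0 to 5 members higher and 0 to 1 lower. There were 5 higher without control mouse 3 (against 8.08% of all tested genes), 3 without control mouse 5 (7.89%) and 2 without control mouse 4 (7.28%). The member lower was Cox7a1, without control mouse 1 (against 4.66%), control mouse 5 (6.17%) or BIBB-515 mouse 11 (4.49%). Other mitochondrial genes higher, 5 as reported, were 8 with DESeq2 (against 9.32% of all tested genes) and 10 with library size alone (12.0%). They were 4 to 8 with 1 mouse left out, where 5.39% to 8.08% of all tested genes were higher. The cause was not tested. The median log2 fold change of the members stayed above that of all genes and ranged from 0.01 to 0.13 over the other settings and from 0.05 to 0.12 with 1 mouse left out.

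Among the members named by rule, direction changed in 12, each between -0.07 and 0.07 as reported and past the threshold in no setting run. The fold changes of the other members were not followed across settings. With the length trend removed Ndufa4 was at -0.0307, Uqcrq at -0.0807, Ndufs3 at -0.0134, Ndufs8 at -0.0029, Ndufv2 at -0.031 and Cox7a2 at -0.0427. With library size alone Uqcrb was at 0.0166, Uqcrfs1 at 0.0495, Cox5a at 0.0226 and Cox7b at 0.0402. Uqcrfs1 was also at 0.0057 without the filter, 0.0037 in the primary-alignment tables and 0.0012 with upper-quartile scaling, and Ndufa4l2 at 0.0094 in the primary-alignment tables. With 1 mouse left out the ranges that crossed 0 were -0.0905 to 0.0278 for Uqcrb, -0.0449 to 0.0629 for Uqcrq, -0.0014 to 0.0467 for Ndufs1, -0.0328 to 0.0561 for Ndufv2, -0.0378 to 0.0234 for Uqcrfs1 and -0.0576 to 0.0565 for Cox7b. Counts of 20 to 78 per library limit the precision of Cox7a1, and how shared sequence bears on Atp5g2, Atp5l and Ndufb4 was not tested.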
